A study of Mus musculus with 34 samples.

Results

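The cytochrome P450 genes of families 2, 3 and 4 were examined in kidneys of a mouse model of polycystic kidney disease (PKD). The members were chosen with earlier results of these data known. They were taken by symbol, as every gene whose symbol begins with Cyp2, Cyp3 or Cyp4 followed by a single subfamily letter and a number. This gave 79 genes of the 23509 symbols in each count table, with 50 genes in family 2, 9 in family 3 and 20 in family 4. Kidney mRNA had been sequenced in 34 mice of the C57BL6 background at postnatal day (P) 28. The labels give 11 mice of genotype Pdk2KO dosed with RGLS4326, 11 mice of the same genotype given PBS, and 12 untreated mice (UNT) of non-transgenic genotype. RGLS4326, an oligonucleotide complementary to the seed of the microRNA miR-17, was injected under the skin at 20 mg per kg on P10, P11, P12 and P19. The labels spell the knocked-out gene Pdk2 in the sample titles and Pkd2 in the treatment text, and the study describes a floxed Pkd2 allele cut by a Cre driven by the Pkhd1 promoter, which acts in kidney tubules and not in every kidney cell. UNT mice received no injection, so genotype and injection cannot be told apart in PBS vs UNT. Groups follow the labels, although the study's own account of its sequencing gives another number of PBS-treated mice. Each library was a separate kidney sample by its label, and litters are not named.

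P450 enzymes are heme proteins, mostly of the endoplasmic reticulum, that insert an oxygen atom into fats, steroids, vitamins and foreign compounds with electrons passed on by the reductase Por. In kidney, enzymes of the Cyp2c and Cyp2j subfamilies turn arachidonic acid into epoxides that act on vessel tone and salt transport, and Cyp4a enzymes hydroxylate the end of the fatty acid chain, which gives 20-HETE from arachidonic acid. Most of these transcripts are known from the proximal tubule, and Cyp4a10 and Cyp4a14 are textbook targets of the fatty acid receptor PPARalpha.

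Each library held between 17603122 and 54981992 reads in genes. Values below are CPM, counts scaled to a common total of reads in genes, after TMM scaling of the libraries, and a level per length is CPM per kilobase of exon. Fold changes are log2 values from the edgeR quasi-likelihood test in a single fit of all 34 libraries, and a gene was called at a Benjamini-Hochberg adjusted p under 0.05 over the 15644 genes tested. Pkd2 was at 274 ± 34.4 CPM (SD, n = 12) in UNT, 160.1 ± 32.2 CPM (n = 11) in PBS-treated and 209.8 ± 23.8 CPM (n = 11) in RGLS4326-treated kidneys, and the UNT and PBS ranges did not overlap. Pdk2 was at 266 ± 39.9, 118 ± 20.9 and 116 ± 26.1 CPM in these groups. PBS libraries 2 and 11 stood apart from the other 32 libraries in genes of the adrenal cortex, with Star, the cholesterol carrier of steroid-making cells, at 302 and 450.3 CPM against 1.01 to 16.8 CPM elsewhere. The PBS calls of the families are given with and without them below.

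Of the 79 genes, 8 had no count in any library, which over 34 libraries allows up to 0.00259 CPM of uniquely mapped reads (3 counts). These were Cyp2b13, Cyp2b19, Cyp2c39, Cyp2c53-ps, Cyp2c66, Cyp2c67, Cyp3a41a and Cyp3a41b, named here for their values. Reads that fit several genes were not counted, and Cyp3a41a, Cyp3a41b and Cyp2c67 share 95.3%, 90.9% and 36.01% of their 75-base stretches with other genes. For these genes a count of 0 limits only reads from the part that is not shared, which is small in Cyp3a41a and Cyp3a41b. Another 35 had counts but stayed below the filter on low counts, and 36 passed it, 20 of family 2, 1 of family 3 and 15 of family 4. A gene can pass this filter through the group in which it is high, so the counts below describe the tested genes only. Among genes that did not pass were Cyp3a11, a main drug-oxidizing P450 of mouse liver, with 42 counts over all libraries, Cyp4f14, a leukotriene B4 hydroxylase, with 194 counts, and Cyp4x1 with 86 counts.

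The families took a small part of the kidney transcriptome, and a smaller part in the knockout groups. The 79 genes together held 0.453% ± 0.074 of the reads in genes in UNT kidneys (n = 12), with a range of 0.344% to 0.570%. In PBS-treated kidneys the share was 0.146% ± 0.0545 (n = 11), from 0.0814% to 0.248%, so no PBS-treated kidney reached the lowest UNT kidney. RGLS4326-treated kidneys held 0.177% ± 0.0313 (n = 11), from 0.131% to 0.222%. Family 2 fell from 0.258% ± 0.039 in UNT to 0.0924% ± 0.0304 in PBS-treated kidneys, and family 4 from 0.196% ± 0.0519 to 0.0528% ± 0.0254. Family 3 was the exception, with 0.00018% in UNT, 0.000476% in PBS-treated and 0.000408% in RGLS4326-treated kidneys, almost all of it Cyp3a13. These shares are descriptions and were not tested. In whole kidneys, fewer cells of a type and less RNA per cell cannot be told apart.

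To see how the cystic kidney differed from the healthy kidney, PBS was compared with UNT. Of the 36 tested genes, 33 were called, where 82.1% of all tested genes were called in this contrast. In 23 the level fell, beside 39% of all tested genes, and in 10 it rose, beside 43.1% of all. The median log2 fold change of the 36 was -0.94, and that of all tested genes was 0.04. In family 2, 16 of 20 tested genes fell and 3 rose. In family 4, 7 of 15 fell and 6 rose, so the family was split. The ranges of PBS and UNT kidneys did not overlap for 22 of the 36 genes, against 42.5% of all tested genes. Of the 33 called genes, 31 had the same direction within each of the 3 runs, and the others were Cyp2e1 and Cyp2s1. Runs are blocks in which the sample index of the table names restarts. They make up the libraries that gave the calls, so agreement within them is no separate support. Its share among all called genes was not counted. In RGLS4326 vs UNT, which shares groups with both other comparisons, 29 of the 36 were called (77.7% of all tested genes), 22 lower (36.9% of all) and 7 higher (40.8% of all).

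**Figure D1:**
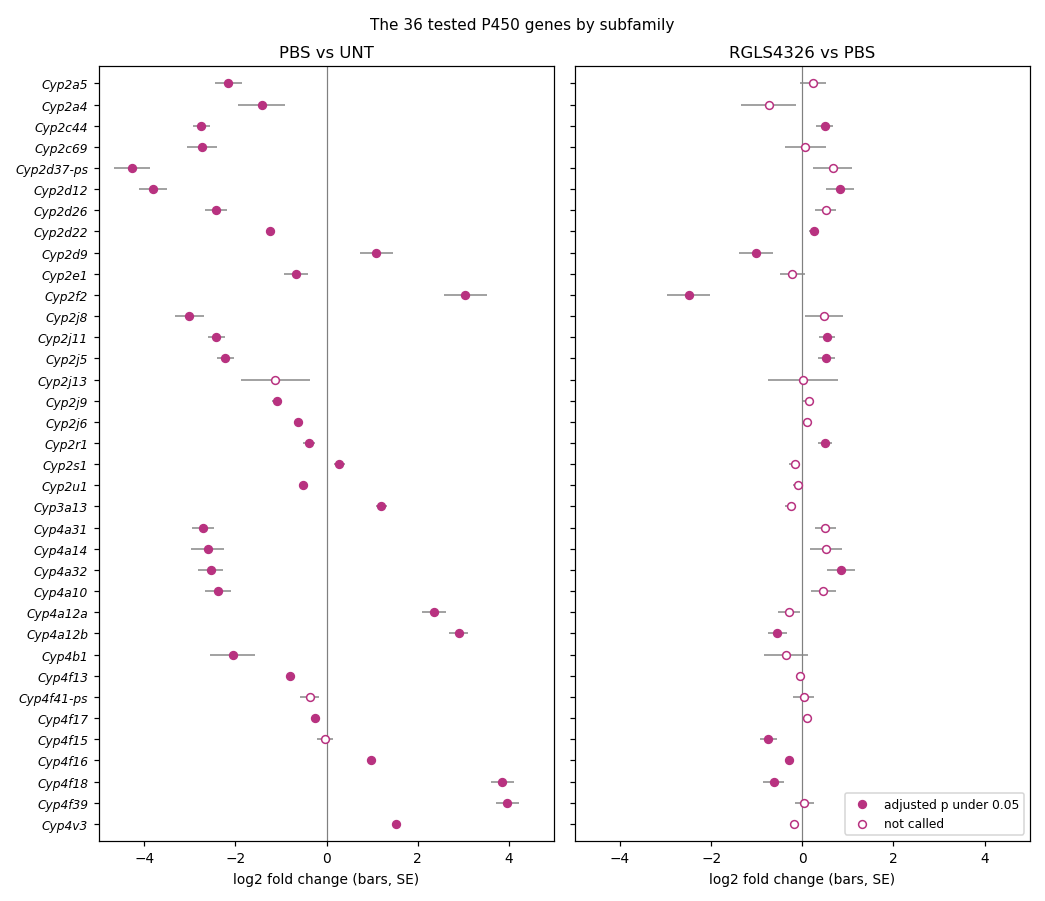
Log2 fold changes of the 36 tested P450 genes in PBS vs UNT (left) and RGLS4326 vs PBS (right), with bars for the SE and filled points for an adjusted p under 0.05. On the left 23 filled points lie below 0 and 10 above it, and on the right 7 lie above 0 and 6 below.

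The epoxygenases of the Cyp2j subfamily, which lie side by side on chromosome 4, held the strongest of the 79 genes per length. Cyp2j5, an arachidonic acid epoxygenase of the proximal tubule (GRCm38 chr4:96628773-96664154, minus strand), had a level of 660.5 CPM per kb in UNT kidneys. Its level was 1268 to 2324 CPM in the 12 UNT kidneys (median 1460), 152 to 596 CPM in the 11 PBS-treated kidneys (median 319) and 349.8 to 617 CPM in the 11 RGLS4326-treated kidneys (median 444). Every PBS-treated and every RGLS4326-treated kidney was below every UNT kidney. The log2 fold change in PBS vs UNT was -2.22 (SE 0.19, edgeR adjusted p = 4.26e-13), and -2.62, -1.76 and -2.49 within runs 1, 2 and 3. Cyp2j11 of the same cluster went from 179 to 310.0 CPM in UNT (median 212) to 17.6 to 69.5 CPM in PBS-treated kidneys (median 46.6), or by -2.42 on the log2 scale (SE 0.19, edgeR adjusted p = 3.48e-14). Cyp2j8, far weaker, fell by 3.01 on the log2 scale, and Cyp2j6 by 0.64. In PBS vs UNT 5 of the 6 tested Cyp2j genes fell, beside 39% of all tested genes. The sixth, Cyp2j13, is described separately below. No 75-base stretch of the 6 tested Cyp2j transcripts is shared with another gene in GENCODE M21.

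The other epoxygenase of the mouse kidney, Cyp2c44 (listed as Cyp2c23 in GENCODE M21, chr19:44005022-44029208, minus strand), followed the same course. It stood at 47.9 to 83.7 CPM in UNT kidneys (median 63.5), 3.96 to 18.2 CPM in PBS-treated kidneys (median 9.99) and 9.43 to 19.3 CPM in RGLS4326-treated kidneys (median 13.3). No knockout kidney of either group reached the UNT range. The fall in PBS vs UNT was -2.75 on the log2 scale (SE 0.19, edgeR adjusted p = 2.14e-15). Of the 16 Cyp2c genes, only this gene and Cyp2c69 were tested. Cyp2c69 fell by 2.72 from a low level of 0.636 ± 0.224 CPM, and shares 43.2% of its 75-base stretches with other genes, so its count is uncertain.

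**Figure D2:**
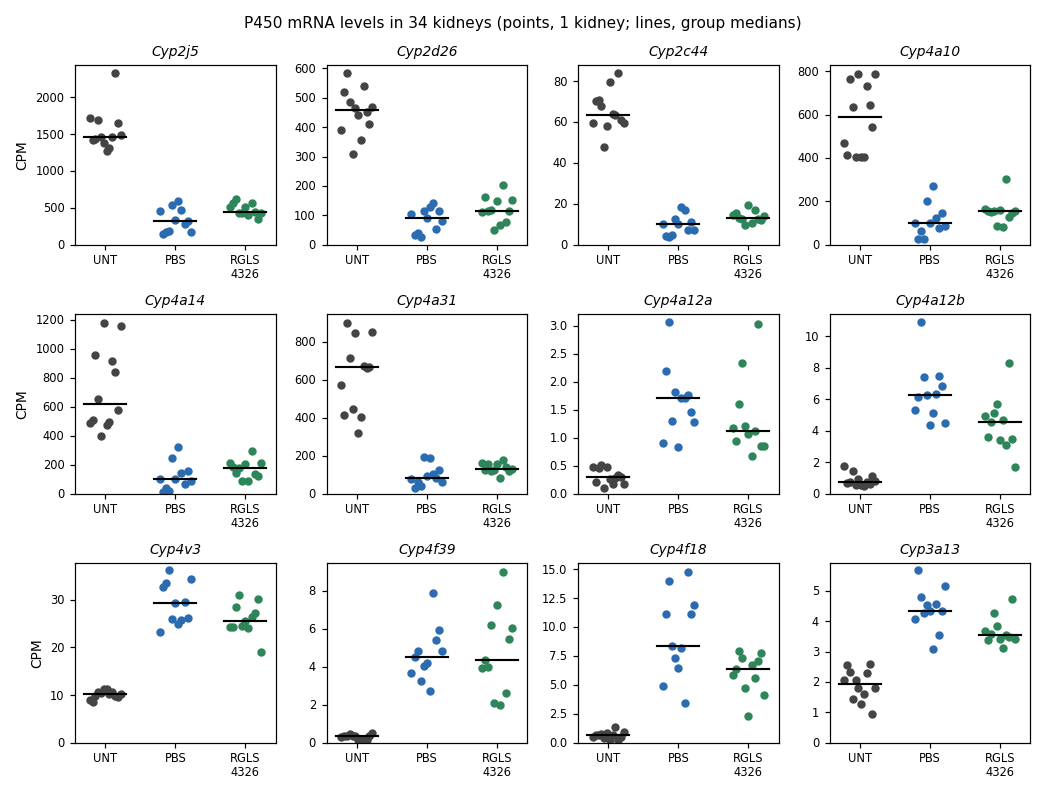
CPM of 12 P450 genes in 34 kidneys (linear axes from 0), with 1 point for each kidney and a line at each group median. Cyp2j5, Cyp2d26, Cyp2c44, Cyp4a10, Cyp4a14 and Cyp4a31 are low in both knockout groups, and the other 6 genes are high in them, with no overlap between UNT and PBS for any of the 12.

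The Cyp4a cluster of fatty acid hydroxylases on chromosome 4 was split. Cyp4a10, Cyp4a14 and Cyp4a31 were among the 6 strongest P450 genes per length, with 276, 277 and 248 CPM per kb in UNT kidneys. Cyp4a14 (chr4:115486200-115496142, minus strand) had 400.3 to 1179 CPM in UNT kidneys (median 616), 11.9 to 323 CPM in PBS-treated kidneys (median 102) and 87.3 to 296 CPM in RGLS4326-treated kidneys (median 177). Cyp4a10 (chr4:115518264-115533649, plus strand) had 404 to 789 CPM in UNT (median 588), 25.0 to 269.9 CPM in PBS-treated (median 98.7) and 80.8 to 303 CPM in RGLS4326-treated kidneys (median 155). For both genes the highest PBS-treated kidney was below the lowest UNT kidney. The log2 fold changes in PBS vs UNT were -2.61 (SE 0.36, edgeR adjusted p = 4.9e-08) for Cyp4a14 and -2.39 (SE 0.28, edgeR adjusted p = 1.28e-09) for Cyp4a10. Cyp4a31 fell by 2.71 and Cyp4a32, at 1.49 ± 0.509 CPM in UNT, by 2.55. Within runs 1, 2 and 3 the fall of Cyp4a14 was -3.70, -1.92 and -2.94.

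Cyp4a12a and Cyp4a12b, known as the main 20-HETE synthases of the mouse kidney and as androgen-driven, went the other way from low levels. Cyp4a12b (chr4:115411624-115439034, plus strand) stood at 0.48 to 1.77 CPM in UNT kidneys (median 0.755), 4.37 to 10.9 CPM in PBS-treated kidneys (median 6.25) and 1.69 to 8.27 CPM in RGLS4326-treated kidneys (median 4.52). Every PBS-treated kidney was above every UNT kidney. The rise in PBS vs UNT was 2.90 (SE 0.22, edgeR adjusted p = 1.39e-14) for Cyp4a12b and 2.36 (SE 0.26, edgeR adjusted p = 2.8e-10) for Cyp4a12a. Even so, Cyp4a12b reached only 2.68 CPM per kb in PBS-treated kidneys, where Cyp4a10 still had 52.8 CPM per kb. Summed over all 79 genes, the fall of the strong genes therefore outweighed the rise of the weak ones.

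How far reads of these genes can be told apart depends on their sequences, so the same 90 coding bases of each are printed here, 5′ to 3′ on the coding strand, with capitals where a base differs from Cyp4a12b in the alignment (GENCODE M21 transcripts, GRCm38).
Cyp4a12b, chr4:115432891-115432980, plus strand: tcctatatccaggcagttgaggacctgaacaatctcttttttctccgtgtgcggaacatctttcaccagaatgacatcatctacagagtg
Cyp4a12a, chr4:115326638-115326727, plus strand: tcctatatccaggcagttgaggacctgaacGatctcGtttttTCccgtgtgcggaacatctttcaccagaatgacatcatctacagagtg
Cyp4a10, chr4:115524735-115524824, plus strand: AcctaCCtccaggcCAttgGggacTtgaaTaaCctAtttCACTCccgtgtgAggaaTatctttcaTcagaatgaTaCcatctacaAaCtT
Cyp4a32, chr4:115610463-115610552, plus strand: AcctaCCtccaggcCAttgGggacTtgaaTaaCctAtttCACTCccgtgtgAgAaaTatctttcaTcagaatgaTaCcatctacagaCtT
Cyp4a31, chr4:115570196-115570285, plus strand: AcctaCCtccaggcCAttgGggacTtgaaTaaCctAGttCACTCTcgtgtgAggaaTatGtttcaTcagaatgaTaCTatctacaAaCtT
Cyp4a14, chr4:115492136-115492225, minus strand: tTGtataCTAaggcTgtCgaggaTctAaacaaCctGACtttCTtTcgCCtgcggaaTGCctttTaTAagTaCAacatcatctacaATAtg
In this stretch Cyp4a12a differs from Cyp4a12b at 4 bases, and the 4 genes that fell differ from it at 23 to 30 bases. Over the whole coding sequence Cyp4a12a and Cyp4a12b are 98.5% identical and share 40.8% and 41.3% of their 75-base stretches, so uniquely mapped reads undercount both and could be split between them. Cyp4a10, Cyp4a31 and Cyp4a32 are 96.0% to 97.2% identical to each other, and share 19.1%, 13.9% and 30.4% of their stretches with other genes. Identity between the genes that rose and those that fell was 75.7% to 80.3%.

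The remaining genes of family 4 were split as well. Cyp4f39, a hydroxylase of very long fatty acids of the skin barrier (chr17:32452723-32493320, plus strand), rose most of the 36 genes, from 0.121 to 0.505 CPM in UNT kidneys to 2.74 to 7.88 CPM in PBS-treated and 1.999 to 9.002 CPM in RGLS4326-treated kidneys. In PBS vs UNT this was 3.97 on the log2 scale (SE 0.26, edgeR adjusted p = 2.58e-16), and the groups did not overlap. Cyp4f18, a leukotriene B4 hydroxylase of white blood cells, rose by 3.86 (SE 0.26, edgeR adjusted p = 4.9e-16), from 0.266 to 1.395 CPM to 3.44 to 14.8 CPM. Its exons overlap those of Zfp961 on the opposite strand over 181 bases and the strand setting of the counting is not given, so its count is uncertain. Cyp4v3, a fatty acid hydroxylase of broad expression, rose in a narrow band from 8.59 to 11.3 CPM to 23.2 to 36.3 CPM (log2 1.53, SE 0.08, edgeR adjusted p = 1.91e-19). Cyp4f16 rose by 0.99, and Cyp4f13 fell by 0.79. Cyp4f15 (-0.03) and the pseudogene Cyp4f41-ps (-0.37, edgeR adjusted p = 0.107) were not called. Without PBS library 9, Cyp4f41-ps was called (-0.48, edgeR adjusted p = 0.042). Macrophage and neutrophil markers rose beside Cyp4f18: the 4 macrophage genes measured summed to 76.4 to 140.2 CPM in UNT, 445 to 1234 CPM in PBS-treated and 385 to 763 CPM in RGLS4326-treated kidneys, and the 3 neutrophil genes to 1.56 to 7.13, 7.76 to 40.05 and 10.6 to 21 CPM. Their part in the level of Cyp4f18 was not tested.

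Among the other genes of family 2, 5 of the 10 Cyp2d genes were tested. In PBS vs UNT 4 of these 5 fell and 1 rose, beside 39% and 43.1% of all tested genes. Cyp2d26 (chr15:82790101-82794294, minus strand), the fourth strongest member per length, had 309 to 583 CPM in UNT kidneys (median 460.04), 25.8 to 142 CPM in PBS-treated kidneys (median 90.8) and 49.2 to 205 CPM in RGLS4326-treated kidneys (median 116). The UNT kidneys were all above both knockout groups. The pseudogene Cyp2d37-ps had the steepest fall of the 36 genes, -4.26 (SE 0.40, edgeR adjusted p = 3.9e-12), from 4.48 to 24.0 CPM to 0.117 to 1.36 CPM. Cyp2d12 followed with -3.80 (SE 0.31, edgeR adjusted p = 1.21e-13). Cyp2d22 fell by 1.23. Cyp2d9, known as a steroid 16alpha-hydroxylase of male mouse liver, rose by 1.09 (SE 0.36, edgeR adjusted p = 0.00644), but with overlapping ranges of 0.959 to 7.46 CPM in UNT and 0.744 to 11.7 CPM in PBS-treated kidneys. It shares 16.7% of its 75-base stretches with other genes.

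Cyp2a5, the coumarin hydroxylase, fell by 2.15 (SE 0.29, edgeR adjusted p = 2.98e-08), from a UNT median of 38.4 CPM to a PBS median of 9.43 CPM. Its near copy Cyp2a4 fell by 1.42 (edgeR adjusted p = 0.0123), a call that rested on UNT library 3: without it the difference was -0.80 and the adjusted p 0.108. Cyp2a5 and Cyp2a4 share 25.5% and 22.1% of their 75-base stretches with other genes, mostly with each other, so their counts are uncertain. Cyp2e1, the ethanol-oxidizing P450 one of the 5 strongest members per length, fell by 0.68 (SE 0.27, edgeR adjusted p = 0.0194), with -1.50, 0.21 and -0.89 within runs 1, 2 and 3, and without UNT library 10 the adjusted p was 0.0554. Cyp2r1, a vitamin D 25-hydroxylase, fell by 0.38, and Cyp2u1, a fatty acid hydroxylase, by 0.51 (edgeR adjusted p = 2.54e-05). Cyp2u1 shares 11.4% of its stretches with other genes. Cyp2s1, an epithelial P450, rose by 0.28 (edgeR adjusted p = 0.0275) and was no longer called without UNT library 1 or 10 or PBS library 4 or 8 (edgeR adjusted p 0.0526 to 0.0648). In family 3 the only tested gene was Cyp3a13, which rose by 1.21 (SE 0.12, edgeR adjusted p = 4.81e-11) from 0.950 to 2.59 CPM to 3.07 to 5.68 CPM, without overlap.

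Cyp2f2, the naphthalene-oxidizing P450 of airway club cells, showed the largest log2 difference of the 36 genes between the knockout groups, and it stayed called at a smaller size without a pair of libraries. The 12 UNT kidneys had 0.374 to 0.918 CPM (median 0.571), the 11 PBS-treated kidneys 0.692 to 28.2 CPM (median 2.25) and the 11 RGLS4326-treated kidneys 0.373 to 1.69 CPM (median 0.733). PBS library 11 had 28.2 CPM and PBS library 2 had 10.6 CPM, while the other 9 PBS-treated kidneys had 0.692 to 2.32 CPM. Of the 11 PBS-treated kidneys, 10 were above the highest UNT kidney. The same libraries led in the 3 adrenal cortex genes, whose sum was 965 CPM in PBS library 11 and 533 CPM in PBS library 2 and from 1.20 to 29.3 CPM in the other 32. The fit gave 3.05 (SE 0.47, edgeR adjusted p = 3.9e-07) in PBS vs UNT and -2.49 (SE 0.48, edgeR adjusted p = 0.00131) in RGLS4326 vs PBS. Without both libraries these became 1.59 (SE 0.25, edgeR adjusted p = 4.76e-07) and -1.04 (SE 0.25, edgeR adjusted p = 0.0141). Without PBS library 11 alone the latter was -1.58. The part of adrenal tissue in the remaining difference was not tested.

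**Figure D3:**
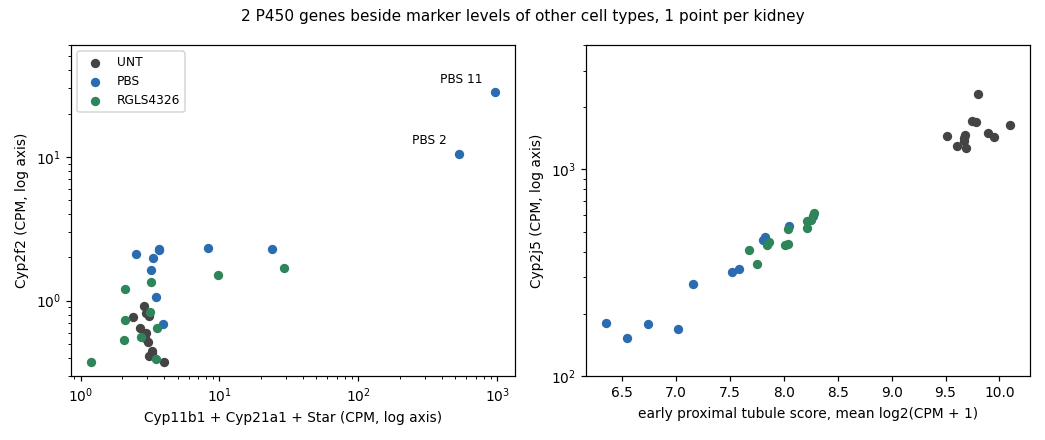
Left, Cyp2f2 against the sum of the adrenal cortex genes Cyp11b1, Cyp21a1 and Star, both in CPM on log axes. Right, Cyp2j5 in CPM (log axis) against the early proximal tubule score, the mean log2(CPM + 1) of 8 marker genes, with 1 point for each kidney. PBS libraries 2 and 11 stand alone at the upper right on the left, and on the right the 12 UNT kidneys, with scores of 9.51 to 10.1, lie apart from all knockout kidneys.

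Whether RGLS4326 moved these genes in the knockout kidney was tested against PBS. Of the 36 tested genes, 13 were called, where 33.8% of all tested genes were called. The level rose in 7, beside 15.3% of all tested genes, and fell in 6, beside 18.5% of all. The median log2 fold change of the 36 was 0.05, and that of all tested genes was 0.002. The genes that rose were the epoxygenase genes Cyp2j5, Cyp2j11 and Cyp2c44, the Cyp2d genes Cyp2d12 and Cyp2d22, Cyp2r1 and Cyp4a32. Those that fell were Cyp2d9, Cyp2f2, Cyp4a12b, Cyp4f15, Cyp4f16 and Cyp4f18. The ranges of RGLS4326-treated and PBS-treated kidneys overlapped for every one of the 36 genes, as they did for nearly all tested genes (0.0639% did not overlap). All 13 called genes had the same direction within each of the 3 runs. The runs make up the libraries that gave the calls, so this is no separate support. Its share among all called genes was not counted. Sizes were uneven: in runs 1, 2 and 3 Cyp2j5 was at 1.03, 0.15 and 0.54, and Cyp4f15 at -0.25, -0.18 and -1.49. With only the PBS and RGLS4326 libraries in the fit, 9 genes were called (28.2% of all tested genes), 2 higher and 7 lower. In that fit Cyp2j5, Cyp2j11, Cyp2c44, Cyp2d12 and Cyp2d22 were not called, with log2 fold changes of 0.53, 0.54, 0.49, 0.83 and 0.25 (edgeR adjusted p 0.0629, 0.0546, 0.0915, 0.0576 and 0.0733), and Cyp3a13 was (-0.26, edgeR adjusted p = 0.0495). Within single runs, 2 genes were called in run 1 (0.364% of all tested genes), 1 in run 2 (25.9%) and 0 in run 3 (0%), where 9 had an unadjusted p under 0.05.

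Cyp2j5 rose by 0.53 (SE 0.18, edgeR adjusted p = 0.0277), and all 11 RGLS4326-treated kidneys were above the PBS mean of 333 CPM, while the groups overlapped widely. The SD among PBS-treated kidneys was 159 CPM and that among RGLS4326-treated kidneys 80.8 CPM, and the lowest kidney had 152 CPM in the PBS group and 349.8 CPM in the RGLS4326 group. Cyp2j11 rose by 0.54 (SE 0.18, edgeR adjusted p = 0.0225), with 11 of 11 RGLS4326-treated kidneys above the PBS mean, and Cyp2c44 by 0.49 (SE 0.19, edgeR adjusted p = 0.0406), with 10 of 11 above it. Cyp2d12 rose by 0.82 (edgeR adjusted p = 0.0398), Cyp4a32 by 0.85 (edgeR adjusted p = 0.0312) and Cyp2d22 by 0.25 (edgeR adjusted p = 0.0399). The vitamin D hydroxylase Cyp2r1 went from 0.856 to 1.56 CPM in PBS-treated to 0.993 to 2.51 CPM in RGLS4326-treated kidneys, a rise of 0.50 (SE 0.14, edgeR adjusted p = 0.0114). UNT kidneys had 1.07 to 2.81 CPM of it, and RGLS4326 vs UNT was not called (0.11, edgeR adjusted p = 0.467).

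The strong Cyp4a genes were not called in RGLS4326 vs PBS. Cyp4a14 differed by 0.52 (edgeR adjusted p = 0.237), with a 95% interval from the SE of -0.16 to 1.20, and by 1.81, -0.43 and 0.76 within runs 1, 2 and 3. Without PBS library 7 its difference was 0.80. Cyp4a10 differed by 0.46 (interval -0.07 to 0.99, edgeR adjusted p = 0.177) and Cyp4a31 by 0.51 (interval 0.06 to 0.96, edgeR adjusted p = 0.0805). Cyp2j5 differed by 0.53 with an SE of 0.18, and the SEs of these 3 genes were 0.35, 0.27 and 0.23. Cyp2d26 likewise differed by 0.51 (edgeR adjusted p = 0.0805).

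Among the genes that fell, Cyp4f15, a leukotriene hydroxylase that PBS vs UNT did not call, had 0.587 to 1.76 CPM in PBS-treated and 0.332 to 1.08 CPM in RGLS4326-treated kidneys, with 11 of 11 below the PBS mean. Its change was -0.74 (SE 0.19, edgeR adjusted p = 0.00609). Cyp4f16 went from 16.2 to 29.3 CPM to 16.9 to 22.7 CPM (-0.30, SE 0.08, edgeR adjusted p = 0.00896), and 16.1% of its 75-base stretches occur in other genes, mostly Cyp4f37. Cyp4f18 fell by 0.63 (edgeR adjusted p = 0.0302), Cyp4a12b by 0.55 (edgeR adjusted p = 0.0345) and Cyp2d9 by 1.01 (edgeR adjusted p = 0.0353). Cyp4f39 was not called, with 0.04 (interval -0.37 to 0.46, edgeR adjusted p = 0.891), an interval that includes the -0.30 of Cyp4f16.

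Of these treatment calls, 8 of the 13 were lost when 1 library or another was left out. Leaving out each of the 34 libraries in turn gave 7 to 17 called genes, while 25.7% to 39.7% of all tested genes were called in these fits. Cyp2f2, Cyp2j11, Cyp2r1, Cyp4f15 and Cyp4f16 were called in all 34 fits, and the other 8 lost their call in at least 1. No left-out library moved the log2 fold change of any of these 8 by over 1.5 times, and where Cyp2j5 lost its call it was at 0.45 to 0.46, against 0.53 with all libraries. Cyp2j5 lost it without PBS library 2, 4 or 11 (edgeR adjusted p 0.0509 to 0.0546). Cyp4a32 lost it without PBS library 2 or 4 or RGLS4326 library 5, 6 or 9 (0.0512 to 0.0654), and Cyp4f18 without PBS library 3, 9 or 11 or RGLS4326 library 5, 6 or 11 (0.052 to 0.0697). Cyp2d9 lost it without PBS library 3, 9 or 11 or RGLS4326 library 1, 5, 7 or 11 (0.0501 to 0.0815), and Cyp4a12b without PBS library 3, 4 or 9 or RGLS4326 library 2, 6, 8 or 11 (0.0519 to 0.0795). Cyp2c44 lost it without PBS library 2, 3, 4, 9 or 11 or RGLS4326 library 1, 2, 6, 8 or 11 (0.055 to 0.0828). Cyp2d22 lost it without PBS library 1, 2, 4, 6, 9 or 11 or RGLS4326 library 1, 6, 9, 10 or 11 (0.052 to 0.0809), and Cyp2d12 without PBS library 1, 2, 3, 4, 6, 9 or 11 or RGLS4326 library 2, 3, 5, 6, 7 or 11 (0.0519 to 0.0681). Conversely, Cyp4a10 was called without PBS library 7 (0.0348), Cyp4a31 without PBS library 5 or 7 (0.018 to 0.022), Cyp2d26 without PBS library 7 or 8 or RGLS4326 library 5 (0.0389 to 0.0474), and Cyp4v3 without PBS library 1, 5 or 7 or RGLS4326 library 4 or 10 (0.0359 to 0.0497). Without PBS libraries 2 and 11 together 5 genes were called (18.2% of all tested genes), namely Cyp2f2, Cyp2r1, Cyp4a12b, Cyp4f15 and Cyp4f16. The other 8 kept their direction in that fit and were not called. Cyp2j5 was at 0.37 (edgeR adjusted p = 0.102), Cyp2j11 at 0.41 (0.083), Cyp2c44 at 0.37 (0.132), Cyp2d12 at 0.71 (0.105) and Cyp2d22 at 0.20 (0.124). Cyp4a32 was at 0.77 (0.0712), Cyp2d9 at -0.83 (0.114) and Cyp4f18 at -0.55 (0.0907). In PBS vs UNT, 33 genes were called without them as with them.

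Markers of the proximal tubule, where most of the fallen genes are known to be made, moved with them. The 8 early proximal tubule genes summed to 9488 to 13404 CPM in UNT, 957 to 3306 CPM in PBS-treated and 2229 to 3521 CPM in RGLS4326-treated kidneys, and 7 of the 8 fell in PBS vs UNT (39% of all tested genes) while 5 rose in RGLS4326 vs PBS (15.3% of all). The 4 late proximal tubule genes summed to 1212 to 1795, 166 to 563 and 346 to 549 CPM. The early score had medians of 9.72, 7.52 and 8.04 in UNT, PBS and RGLS4326, and UNT did not overlap with either knockout group. Within the PBS group, the kidney with the highest score (8.27, library 7) had 596 CPM of Cyp2j5, 323 CPM of Cyp4a14 and 18.2 CPM of Cyp2c44. The kidney with the lowest score (6.35, library 4) had 180 CPM, 17.6 CPM and 4.96 CPM. Library 2, with a score of 6.55, was lower in each, at 152, 11.9 and 4.40 CPM. The 4 PBS-treated kidneys with the lowest scores were also the 4 lowest for Cyp2j5, Cyp2j11 and Cyp4a31. For the other genes that fell in PBS vs UNT, from 1 (Cyp4b1) to 3 (among them Cyp2c44) of these 4 were. With the score as a covariate, 11 of the 36 genes were called in PBS vs UNT (28.9% of all tested genes), 6 higher and 5 lower, and 0 in RGLS4326 vs PBS (0.0192% of all tested genes), where 3 had an unadjusted p under 0.05. In that fit Cyp4a14 was higher in PBS-treated than in UNT kidneys (1.89, edgeR adjusted p = 0.0075), and Cyp2j5 did not differ detectably (0.15, adjusted p = 0.673). Because the score separates UNT from the knockout groups, genotype and score cannot be told apart in it. When the percentage of reads outside genes entered the fit, 0 of the 36 genes were called in RGLS4326 vs PBS (0.569% of all), with 9 at an unadjusted p under 0.05. That percentage was 9.84% to 11.3% in UNT, 5.18% to 8.995% in PBS and 4.94% to 12.0% in RGLS4326 libraries.

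Cyp2j13, the remaining Cyp2j gene (chr4:96027534-96077546, minus strand), had the largest SD relative to its mean of the 36 genes in UNT kidneys (a coefficient of variation of 154%), with a range of 0.121 to 167 CPM. PBS-treated kidneys had 6.62 to 38.8 CPM and RGLS4326-treated kidneys 7.90 to 57.2 CPM, all within the UNT range. PBS vs UNT was not called for it (-1.12, SE 0.76, edgeR adjusted p = 0.172), and without UNT library 1 the difference was -0.56. After these values had been seen, the libraries were divided by counts of Ddx3y, a Y-linked gene, because the labels do not give sex. Ddx3y was at 20.3 CPM or more in 6 of 12 UNT, 6 of 11 PBS and 5 of 11 RGLS4326 libraries and at 0.0268 CPM or less in the others. UNT libraries with Ddx3y had 8.40 to 167 CPM of Cyp2j13 (median 68.8) and those without it 0.121 to 0.882 CPM (median 0.215, 5 to 33 counts per library). In PBS libraries the levels were 10.3 to 38.8 CPM with Ddx3y (median 23.1) and 6.62 to 11.4 CPM without it (median 9.93). In RGLS4326 libraries they were 10.7 to 57.2 CPM (median 14.6) and 7.90 to 12.5 CPM (median 10.9).

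The 2 kinds of library therefore moved in opposite directions. In libraries with Ddx3y, Cyp2j13 was lower in PBS than in UNT (-1.64, SE 0.48, edgeR adjusted p = 0.00271), and in libraries without it, higher (4.87, SE 0.70, edgeR adjusted p = 2.22e-07). The difference between both changes was -6.51 (SE 0.85, edgeR adjusted p = 0.000143), and Cyp2j13 was the only gene called for it among 15644 tested (0.00639%), with 722 genes, 7 of them among the 36, at an unadjusted p under 0.05. Other genes of the families differed by Ddx3y within UNT. Cyp4b1, a fatty acid and arylamine oxidizing P450 that androgen is known to raise in mouse kidney, had 69.8 to 855.1 CPM with Ddx3y and 24.7 to 128 CPM without it (2.59, SE 0.51, edgeR adjusted p = 0.00592). Cyp2e1 had 249 to 707 CPM with it and 164 to 286 CPM without it (1.33, edgeR adjusted p = 0.0293). Cyp2d37-ps was lower with it (-1.58, edgeR adjusted p = 0.0458). These 4 genes were called in UNT, beside 69 of all tested genes (0.441%), and 0 of the 36 were called within the PBS group or within the RGLS4326 group, with 5 in each at an unadjusted p under 0.05. Of all tested genes, 0.0447% were called within PBS and 0.0384% within RGLS4326. An unadjusted p under 0.05 was given to 671 genes in PBS and 2392 in RGLS4326. In RGLS4326 vs PBS, 6 of the 36 were called among libraries with Ddx3y (33.1% of all tested genes) and 0 among those without it (0% of all), with 4 members and 1628 of all genes at an unadjusted p under 0.05. The difference of this contrast between both kinds of library was called for 0 genes of 15644, with 938 genes and 0 of the 36 at an unadjusted p under 0.05. For Cyp4b1 and Cyp2e1 the difference of PBS vs UNT between the 2 kinds of library was not called (-1.41 and -0.96, edgeR adjusted p = 0.9998 for both). Over all libraries Cyp4b1 fell by 2.06 in PBS vs UNT (SE 0.49, edgeR adjusted p = 0.000273). Its difference was -2.42 (edgeR adjusted p = 6.73e-05) in libraries with Ddx3y and -1.002 (edgeR adjusted p = 0.0783) in those without it. For Cyp2e1 the values were -1.04 (edgeR adjusted p = 0.0024) and -0.07 (edgeR adjusted p = 0.838).

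**Figure D4:**
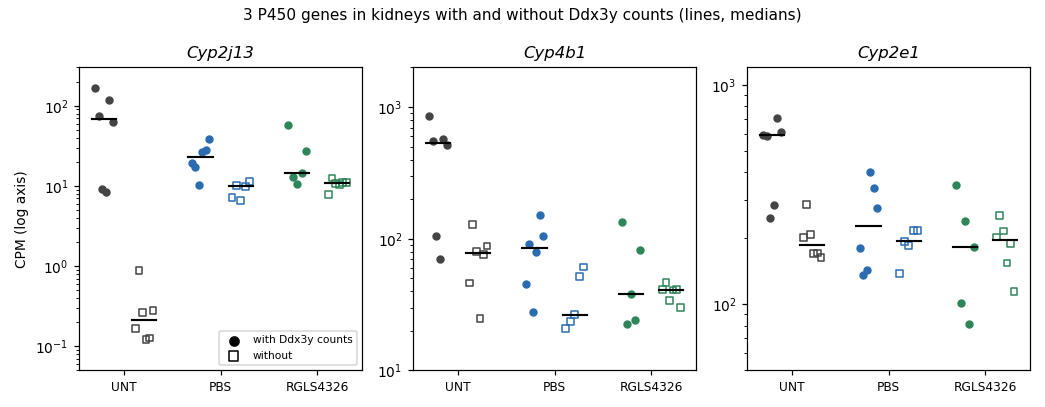
CPM on log axes of Cyp2j13, Cyp4b1 and Cyp2e1 by group, with filled circles for kidneys with Ddx3y counts, open squares for kidneys without them and lines at medians. In the panel of Cyp2j13 the 6 UNT squares lie at 0.121 to 0.882 CPM, below every other kidney.

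RGLS4326 is directed at miR-17, so the 3′UTRs were searched for its seed match. The mature miRNA (RefSeq) is shown with its seed, bases 2 to 8, in capitals, and beneath it stand the 30-base windows of the 3 tested genes with a match (GENCODE M21, GRCm38, coding strand), the match in capitals.
miR-17-5p: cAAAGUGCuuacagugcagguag
Cyp2j13, chr4:96044849-96044878: gagagcatatgGCACTTTttaaaattaaag
Cyp2u1, chr3:131289837-131289866: gtgactggagaGCACTTTctgagccccatc
Cyp4a14, chr4:115486228-115486257: actctgattattCACTTTAgtgatttggag
The search used GCACTTT and CACTTTA on the strand of the transcript, taking for each gene its longest 3′UTR. Of the 69 members with a 3′UTR, 7 (10.1%) held a match, against 19.2% of all genes with one. The length of the 3′UTR, 57 bases in Cyp2d34 and 2790 in Cyp2j13, was not matched, and the difference between these shares was not tested. In RGLS4326 vs PBS none of these 3 genes was called. Cyp2j13 differed by 0.01 (interval -1.50 to 1.52), Cyp2u1 by -0.10 (interval -0.31 to 0.10) and Cyp4a14 by 0.52, as above. Of the other 4 members with a match, Cyp2j12, Cyp3a11, Cyp3a16 and Cyp3a44, none passed the filter on low counts.

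The partners of these enzymes were followed as lists. In PBS vs UNT, where 39% of all tested genes fell and 43.1% rose, 4 of 7 electron donors and heme genes measured fell and 2 rose. Por, the reductase that serves all of these P450s, fell by 1.02 (SE 0.08, edgeR adjusted p = 1.61e-13) to 141 ± 13.7 CPM, and Hmox1, which breaks heme down, rose by 1.27. Of 14 transcription factors and receptors that act on P450 genes, 10 fell and 1 rose. Hnf4a fell by 1.49, the xenobiotic receptors Nr1i2 and Nr1i3 by 1.36 and 2.89, and Ahr rose by 0.99. In RGLS4326 vs PBS, where 15.3% of all tested genes rose and 18.5% fell, Ppara rose by 0.61 (edgeR adjusted p = 0.00806) and the glucocorticoid receptor Nr3c1 by 0.41, and Cebpa fell by 0.37. Of 8 other PPARalpha targets, all 8 fell in PBS vs UNT and 0 were called in RGLS4326 vs PBS by the edgeR test, where 0 had an unadjusted p under 0.05. Of 8 tested genes that supply arachidonic acid or act on its products, 5 rose and 2 fell in PBS vs UNT. Ephx2, the soluble epoxide hydrolase that breaks down epoxides, fell by 1.56, while Pla2g4a, which releases arachidonic acid, rose by 1.12. In RGLS4326 vs PBS 3 of these 8 fell (18.5% of all tested genes), among them Ephx1 by 0.48 (edgeR adjusted p = 0.00334).

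Markers of other cells moved too. In PBS vs UNT, beside the same shares of all genes, the called genes were 5 of 5 higher for collecting duct principal cells, 4 of 4 higher for fibroblasts, 2 of 2 higher for tubular injury, 2 lower and 1 higher of 3 for the thick ascending limb, and 2 lower and 2 higher of 4 for endothelium. In RGLS4326 vs PBS, 18.5% of all tested genes fell and 15.3% rose. There 3 of 5 collecting duct and 3 of 4 macrophage genes fell, as did Cyp4f18. Of the neutrophil genes 0 of 3 were called there, and of the fibroblast genes 0 of 4. In the same comparison 3 of 4 endothelial genes rose, and of the 3 genes of the thick ascending limb 2 rose and 1 fell. The part of these cells in the P450 calls was not tested. The liver genes Alb, Apoa1, Apoa2 and Ahsg summed to 5.50 to 32.7 CPM in UNT and 1.35 to 21.2 CPM in the knockout groups. Of 12 other P450 genes tested outside the 3 families, 4 rose and 4 fell in PBS vs UNT and 1 rose in RGLS4326 vs PBS.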

How the data were processed

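Kidney RNA of 34 mice had been made into stranded mRNA libraries and sequenced as paired 75-base reads. The authors trimmed reads with Trim Galore, aligned them with STAR to GRCm38 and deposited raw counts per gene symbol, uniquely mapped reads only, from HTSeq 0.6.1. The gene annotation and the strand setting are not given in the sources used here. Counts were tested as deposited with edgeR 4.0.16 in R 4.3.3 (TMM scaling, filterByExpr, glmQLFit and glmQLFTest, groups as the only term), with Benjamini-Hochberg adjustment over 15644 genes and calls at 0.05. All 34 libraries entered 1 fit. Summary rows of HTSeq that name no gene stayed out, at 4.94% to 12.0% of reads in no gene. The members and lists were chosen with earlier results of these data known. Genes were named by rule: the 10 strongest members per length, the 8 largest called falls and 8 largest called rises of PBS vs UNT, up to 12 calls of RGLS4326 vs PBS by adjusted p, a list of members with known roles, and Pkd2 and Pdk2. Other names were chosen after values were seen. Transcripts and coordinates come from GENCODE M21 (GRCm38), which held 78 of the 79 members, and miR-17 from RefSeq. Shared sequence was the percentage of 75-base windows of a transcript also found in another gene. Alternatives were DESeq2 1.42.0, other scalings, filters, covariates, runs and left-out libraries. Intervals and floors cover counting error or the SE only. Where replicates are litter mates is not given, so p-values measure the spread between these samples. On simulated data for RGLS4326 vs PBS over 15644 genes, 94 of 100 genes changed by a log2 of 1 and 75 of 100 changed by 0.5 were called, with 10 false calls among 179.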

Additional observations from a re-analysis of the deposited data

Results flagged for a closer look

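Among 15644 genes, Cyp2j13 was the only one called for a different change in PBS vs UNT between libraries with and without Ddx3y counts, by -6.51 on the log2 scale (SE 0.85, edgeR adjusted p = 0.000143). Libraries with Ddx3y had less of it in PBS than in UNT (-1.64), and libraries without Ddx3y had more (4.87). At an unadjusted p under 0.05 stood 722 genes, 7 of them among the 36. The division was chosen after the values had been seen.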

How the results depend on the processing

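The number of called genes among the 36 was 33, 13 and 29 in PBS vs UNT, RGLS4326 vs PBS and RGLS4326 vs UNT, and the same under DESeq2, RLE and upper quartile scaling and run as a covariate. Scaling by library size alone moved the median of all genes in PBS vs UNT to 0.33 and gave 29, 13 and 31 calls. With the proximal tubule score as covariate 11, 0 and 12 were called, beside 4524, 3 and 6919 of all 15644 genes. With reads in no gene as covariate 27, 0 and 29 were called, beside 10975, 89 and 11979 of all. Runs 1, 2 and 3 alone gave 2, 1 and 0 calls in RGLS4326 vs PBS (17, 5 and 9 at an unadjusted p under 0.05, edgeR), beside 57, 4049 and 0 of all 15644 genes. With only the compared groups in the fit 9 were called there, 2 higher and 7 lower instead of 7 and 6, beside 4410 of all genes. Leaving out 1 library gave 7 to 17 calls there, beside 4023 to 6205 of all genes, and leaving out PBS libraries 2 and 11 together, an alternative chosen after seeing the data, gave 5. With no filter on low counts 44 of 71 genes were called in PBS vs UNT, beside 14396 of 20069. Directions reversed with the proximal tubule score as covariate. In PBS vs UNT this gave 0.60 for Cyp2c69, 0.48 for Cyp2d26, 1.09 for Cyp2e1, -1.71 for Cyp2f2, 0.15 for Cyp2j5, 0.042 for Cyp2r1, 1.02 for Cyp4a10, 1.89 for Cyp4a14 and 0.066 for Cyp4a31. In RGLS4326 vs PBS it gave -0.062 for Cyp2c44, -0.034 for Cyp2j11 and -0.037 for Cyp2j5. In RGLS4326 vs UNT it gave 0.27 for Cyp2d26, 0.38 for Cyp2e1, -2.65 for Cyp2f2, 0.11 for Cyp2j5, 0.69 for Cyp4a10, 1.45 for Cyp4a14 and 0.064 for Cyp4a32. In PBS vs UNT, run 2 alone gave 0.21 for Cyp2e1 and -0.040 for Cyp2s1, and Cyp4f17 was at 0.043 with library size alone and 0.15 with reads in no gene as covariate. The cause was not tested. Over single genes and alternatives, 1560 values kept direction and side of the threshold, 138 lost the call, 7 gained it and 23 reversed. Replicate numbers did not pair the samples: deviations of same-numbered libraries correlated from -0.277 to 0.390 in PBS and UNT and from -0.244 to 0.454 in RGLS4326 and PBS. With a replicate block 31, 12 and 29 genes were called, beside 12781, 5098 and 12162 of all.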
